A study of Mus musculus with 9 samples.

Results

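Cd36, Slc27a1 and Slc27a2 encode proteins that take up fatty acids, and binding of PPARγ at these genes was measured over 24 h by ChIP-sequencing of murine interscapular brown adipose tissue (iBAT). The regions were the rows of the count table whose midpoint lay between 17.76 and 17.91 Mb of chromosome 5 for Cd36, between 71.55 and 71.61 Mb of chromosome 8 for Slc27a1 and between 122.54 and 122.61 Mb of chromosome 2 for Slc27a2 (mm10). These windows held 33 of 66066 peaks, 23 at Cd36, 10 at Slc27a1 and 0 at Slc27a2. The curated RefSeq annotation of GRCm38 places Slc27a2 at chr2:126553024-126588243, while the window given for it holds Gatm, a gene of creatine synthesis. The table lists only regions called as peaks, so the empty window gives no upper limit on binding there. A window moved by 4 Mb, from 126.54 to 126.61 Mb, covers Slc27a2 and held 5 peaks. It was chosen after the data had been seen, its peaks are reported beside the 33 and are counted apart from them, and the peaks of all 3 genes then number 38. Peaks are numbered within each window by rising coordinate.

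The iBAT came from non-fasted 10-week-old male C57BL/6J mice, fed chow, housed in mild cold and entrained to a cycle of 12 h of light and 12 h of dark, with ZT0 as the onset of light. The sources name no transgene, deletion or drug for these mice. The 8 time points were 3 h apart. Each pool held tissue from 8 mice according to the labels and the ChIP method and from 4 mice per time point according to the section on animals, and gave 1 library. No time point was replicated, so differences between mice, pools and preparations cannot be told apart from differences in time.

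PPARγ is the nuclear receptor that drives adipocyte differentiation and lipid storage. Together with its partner, the retinoid X receptor, it occupies DR1 elements, in which the hexamer AGGTCA is repeated in the same orientation with 1 base in between. CD36 is a membrane glycoprotein that binds long-chain fatty acids and takes part in their entry into adipocytes, muscle and brown fat, where they fuel thermogenesis. SLC27A1 (FATP1) and SLC27A2 (FATP2) belong to a family of membrane proteins that combine fatty acid transport with acyl-CoA synthetase activity. FATP1 is known from adipose tissue and muscle, and FATP2 mainly from liver and kidney, where it also activates very long-chain fatty acids.

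The most abundant peak of each gene covered an annotated start site, and the 250 bases before that start are given because they lie under these peaks. The sequences are from RefSeq promoters of GRCm38.p6, written in the direction of transcription, and capitals mark a DR1-like element (AGGTCA, any base, AGGTCA, on either strand, with up to 2 mismatches among the 12 fixed bases). The Cd36 sequence is chr5:17835897-17836146 on the minus strand, the Slc27a1 sequence is chr8:71568621-71568870 on the plus strand and the Slc27a2 sequence is chr2:126552774-126553023 on the plus strand.
Cd36 promoter: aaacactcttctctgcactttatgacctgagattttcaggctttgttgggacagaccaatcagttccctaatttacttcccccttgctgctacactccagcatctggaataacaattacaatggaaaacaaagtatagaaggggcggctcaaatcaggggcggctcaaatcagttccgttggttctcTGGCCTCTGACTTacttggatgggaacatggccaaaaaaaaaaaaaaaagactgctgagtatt
Slc27a1 promoter: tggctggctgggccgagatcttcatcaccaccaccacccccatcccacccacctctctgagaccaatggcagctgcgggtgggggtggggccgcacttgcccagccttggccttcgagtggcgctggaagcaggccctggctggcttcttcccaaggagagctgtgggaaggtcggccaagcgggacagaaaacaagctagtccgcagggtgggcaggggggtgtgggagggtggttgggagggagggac
Slc27a2 promoter: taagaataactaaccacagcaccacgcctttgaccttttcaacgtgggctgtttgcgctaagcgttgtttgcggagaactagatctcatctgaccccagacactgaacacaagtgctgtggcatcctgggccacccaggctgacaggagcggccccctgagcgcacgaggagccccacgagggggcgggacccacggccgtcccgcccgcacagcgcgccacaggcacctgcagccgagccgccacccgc
The Cd36 promoter held 1 element, centred 57 bp before the start site at 17835896. No element was found in the 3 Slc27a1 promoters or in the Slc27a2 promoter. Of 32851 mouse promoters of 300 bases, 3.86% held such an element.

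Inside the peaks, the elements of the regions described in detail below are given with 10 bases on either side, read along the strand that carries the element, and capitals mark its 13 bases. They are shown because they can be set against the time courses of the peaks that hold them.
Cd36 peak 12: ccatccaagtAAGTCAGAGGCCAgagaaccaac
Cd36 peak 13: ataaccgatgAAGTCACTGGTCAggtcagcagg
Slc27a1 peak 2: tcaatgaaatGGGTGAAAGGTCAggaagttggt
Slc27a1 peak 4: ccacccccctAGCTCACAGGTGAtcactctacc
Slc27a2 peak 2, element 1: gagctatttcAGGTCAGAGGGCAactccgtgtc
Slc27a2 peak 2, element 2: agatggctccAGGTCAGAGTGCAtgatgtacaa
Slc27a2 peak 3: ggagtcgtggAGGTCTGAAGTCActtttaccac
Slc27a2 peak 5: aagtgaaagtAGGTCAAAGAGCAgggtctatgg
Substitutions are counted from position 1 at the 5′ end of the motif AGGTCA, any base, AGGTCA. The element of Cd36 peak 12 (chr5:17835947-17835959, plus strand) is the one in the promoter above and differed by G2A and T11C, and that of Cd36 peak 13 (chr5:17850964-17850976, minus strand) by G2A and A8T. In the Slc27a1 window, the element of peak 2 (chr8:71564635-71564647, plus strand) differed by A1G and C5G and that of peak 4 (chr8:71570033-71570045, minus strand) by G3C and C12G. The closest match was in Slc27a2 peak 2 (chr2:126555583-126555595, minus strand), which differed by T11G alone and lay 164 bp from a second element in the same peak with G10T and T11G (chr2:126555747-126555759, minus strand). The element of Slc27a2 peak 3 (chr2:126561689-126561701, plus strand) differed by A6T and G9A, and that of peak 5 (chr2:126597494-126597506, minus strand) by G10A and T11G.

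DR1-like elements were found in 6 of 23 Cd36 peaks, 2 of 10 Slc27a1 peaks and 5 of 5 Slc27a2 peaks, compared with 23.6% of all peaks. Per kb of peak, there were 0.116 elements at Cd36, 0.155 at Slc27a1 and 0.384 at Slc27a2, compared with 0.258 over all peaks. Wide peaks hold elements more often. Among the 8 peaks at most 25% wider or 20% narrower than Cd36 peak 12, itself included, 75.0% held one. The same share was 81.0% of 248 peaks about the width of Slc27a2 peak 2 and 56.6% of 2261 about that of Slc27a1 peak 4. Only 1 of the Cd36 peaks and 1 of the Slc27a2 peaks held an element with at most 1 mismatch, and no Slc27a1 peak did. The Cd36 one lies in peak 10 (chr5:17824984-17824996, minus strand, G10T), a weak peak with a mean of 171 normalized counts. The median GC content was 36.2% for the Cd36 peaks, 57.7% for the Slc27a1 peaks and 47.4% for the Slc27a2 peaks, compared with 47.3% for all peaks. A match is a description of the letters, and an absent match says nothing about binding.

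Library sizes were scaled by TMM factors, and normalized counts are reads per peak at a common scaled library size. Between 29572225 and 34264812 reads were counted in peaks per library. The strongest 10% of peaks took between 44.2% of these reads at ZT15 and 48.1% at ZT6, so strong peaks as a class were higher at ZT6 than at ZT15. Cyclic loess normalization, which equalizes the libraries at each strength, was run as an alternative. Peaks within 10 kb of start sites were found for 6 of 6 brown adipocyte marker genes, at sums of 834 to 12180 normalized counts. They were found for 4 of 4 adipocyte marker genes, at 6820 to 15361. They were also found for 3 of 3 endothelial genes (111 to 327) and 2 of 3 skeletal muscle genes (149 and 418). Of the macrophage genes 1 of 3 had them (Cd68, 5394), and of the hepatocyte genes 1 of 3 (Apoa2, 1803). The share of all genes with a peak this near was not determined, so these counts do not set the marker genes apart. The part of other cell types in the results was not tested, and in bulk tissue fewer cells of a type and less binding per cell cannot be told apart.

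Oscillation was tested in 2 ways. JTK-cycle compares the order of the 8 values with waves of 21 and 24 h, and calls a peak at an adjusted P under 0.05. The edgeR test fits a 24-h cosine by quasi-likelihood and calls a peak at a Benjamini-Hochberg adjusted P under 0.05, and its amplitude is the log2 distance between the mean and the top of the cosine. Over all peaks, JTK-cycle called 11.6% and edgeR 13.4%. Within the windows as given, JTK-cycle called 3 of 33 peaks (9.09%) and edgeR 2 of 33 (6.06%), both below the shares of the whole table. In the moved Slc27a2 window, JTK-cycle called 1 and edgeR 2 of 5 peaks. With Benjamini-Hochberg adjustment over all peaks, the lowest q of JTK-cycle in the table was 0.0968, and the lowest among the peaks of these genes was 0.128.

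**Figure D1:**
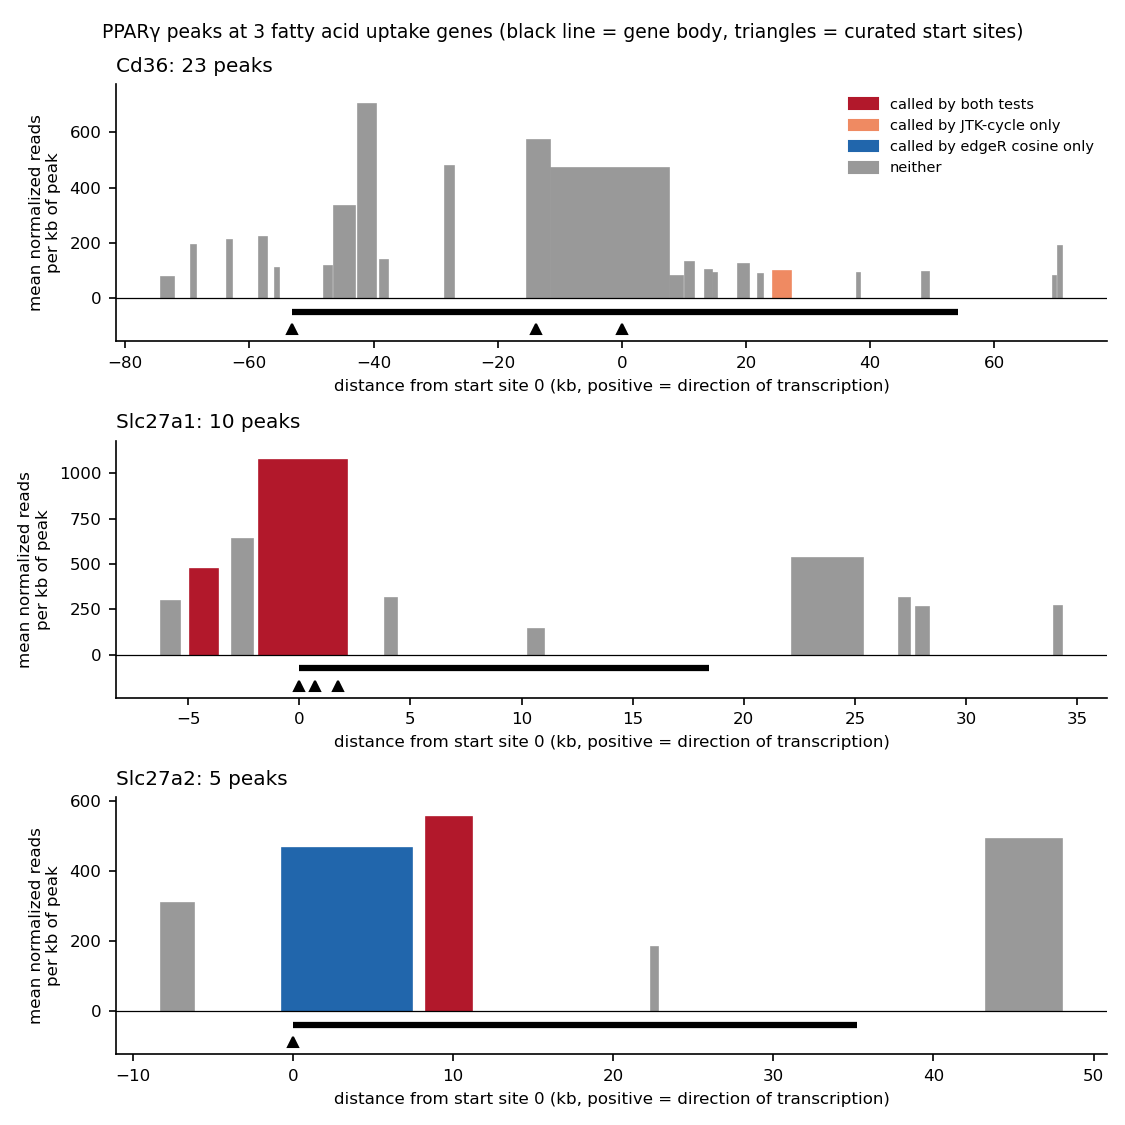
PPARγ peaks at Cd36, Slc27a1 and Slc27a2 (window moved by 4 Mb), with distance from a curated start site in kb on the x axis and mean normalized reads per kb of peak on the y axis, both linear. Each block is 1 peak drawn to its width, colours give the calls of the tests, black lines are gene bodies and triangles are curated start sites. The single broad block at the Cd36 start site is 19007 bp wide and was called by neither test, whereas blocks at and before the Slc27a1 start sites were called by both.

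At Cd36 a few peaks were abundant, and the 3 strongest (peaks 12, 13 and 16) had ratios of highest to lowest from 1.15 to 1.32. Peak 14, with a mean of 707 normalized counts, had a ratio of 1.73. Most peaks of the window were weaker, with a median of 163 normalized counts, compared with 224 for all peaks. Cd36 is transcribed from the minus strand (chr5:17781690-17888959) with 3 curated start sites and 5 curated transcripts. JTK-cycle called 1 of its 23 peaks and edgeR 0 of 23, with 4 at an unadjusted edgeR P under 0.05 and 1 call by DESeq2's likelihood ratio test. Of all 66066 peaks, 20687 had an unadjusted edgeR P under 0.05, and the DESeq2 test called 9975. Both counts at Cd36 were thus below the shares of the whole table. The counting intervals (95%, Wilson) of a peak's lowest and highest value did not overlap in 14 of 23 peaks, compared with 83.9% of all peaks. The median amplitude was 0.159 on the log2 scale, compared with 0.174 for all peaks. The chi-square of the 8 counts divided by its degrees of freedom, which is 1 where only counting error is present, had a median of 2.41, compared with 4.57 for all peaks. At a given relative change this value rises with the read count, so part of the difference goes with the lower median count at Cd36.

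Cd36 peak 12 (chr5:17828326-17847332) was the second widest peak of the whole table and ranked 42 by mean count, with 8931 normalized counts or 469.9 per kb. It covers the start site at 17835896, with its centre in intron 1 of the longer transcripts. Its normalized counts were 8168, 9398, 10239 and 8770.2 at ZT0, ZT3, ZT6 and ZT9, then 9563, 8341, 8394 and 8577.5 at ZT12, ZT15, ZT18 and ZT21. The values were lowest at ZT0 (95% interval 7991 to 8349.7) and highest at ZT6 (10045.5 to 10436), with a dip at ZT9 between high values at ZT6 and ZT12. The highest value was 1.25-fold the lowest. Neither test called the peak (JTK-cycle adjusted P = 0.915, edgeR adjusted P = 0.154, amplitude 0.11 ± 0.04 (SE) on the log2 scale). Its changes exceeded counting error, with a chi-square per degree of freedom of 59.5. Before adjustment the edgeR P was 0.0470, and with 8 single libraries a weak wave cannot be told apart from no wave. Under cyclic loess normalization the highest value moved to ZT18 (9657) and the lowest to ZT9 (8179), so the time of the highest value at this peak depended on how libraries were scaled.

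Cd36 peak 13 (chr5:17847485-17851180) lies 152 bp beyond peak 12 and covers the start site at 17849792, and at 572.5 normalized counts per kb it was denser than peak 12. In normalized counts, binding was 1964, 2192, 2214 and 2048 at ZT0, ZT3, ZT6 and ZT9, then 2255, 2022, 2135 and 2098 at ZT12, ZT15, ZT18 and ZT21. The highest value, at ZT12, was 1.15-fold the lowest, at ZT0, and neither test called it (JTK-cycle adjusted P = 1.0, edgeR adjusted P = 0.820). Under cyclic loess normalization the highest value was at ZT18 (2270.4). The ratio of reads in peak 12 to reads in peak 13, which needs no normalization between libraries, ranged from 3.93 at ZT18 (95% interval 3.75 to 4.13) to 4.62 at ZT6 (4.42 to 4.84). The ratio at ZT6 was 1.18-fold that at ZT18. These are the highest and lowest ratios of the day, their intervals hold counting error only, and no share over other pairs of peaks was calculated. Peak 12 was the stronger (mean 8931, against 2116 for peak 13), and the part of a shift with peak strength in this ratio was not tested.

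Cd36 peak 16 (chr5:17875514-17878459) lies in intron 1 of the longest transcript and had the highest density of the window, 702.5 normalized counts per kb. Reads per library, as normalized counts, came to 1789, 2134, 2331 and 2019.7 at ZT0, ZT3, ZT6 and ZT9, then 2364, 1901, 1931 and 2089 at ZT12, ZT15, ZT18 and ZT21. Like peak 12 it was lowest at ZT0 and high at both ZT6 and ZT12 with a lower value between, and it was not called (JTK-cycle adjusted P = 1.0, edgeR adjusted P = 0.350, ratio of highest to lowest 1.32). Cd36 peak 19 (chr5:17891047-17891774), the one nearest to the start site at 17888959, was weak. Over the 8 libraries, normalized counts were 83.2, 86.1, 109.8 and 79.2 at ZT0, ZT3, ZT6 and ZT9, then 94.5, 60.2, 78.1 and 55.5 at ZT12, ZT15, ZT18 and ZT21. It was not called either (edgeR adjusted P = 0.195, amplitude 0.30 ± 0.12 (SE) on the log2 scale), and the most distal Cd36 start site is covered by no peak.

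Cd36 peak 5 (chr5:17808605-17811522, intron 9) was the only Cd36 peak called by JTK-cycle. It was sparse, with 98.5 normalized counts per kb, compared with a median of 269.9 over all peaks. Its normalized counts were 307, 255, 272 and 242 at ZT0, ZT3, ZT6 and ZT9, then 295, 299.8, 326 and 303 at ZT12, ZT15, ZT18 and ZT21. Values were lower from ZT3 to ZT9 than at the other times, whereas the called peaks at the other 2 genes had their highs in the light phase. Strong peaks as a class were higher at ZT6 than at ZT15, and the part of this shift in the values of so sparse a region was not tested. For peak 5 the LAG (estimated peak) was 19.5 h in a period of 21 h (JTK-cycle adjusted P = 0.0260). The edgeR test did not call it (adjusted P = 0.242, amplitude 0.17 ± 0.07 (SE) on the log2 scale). The JTK-cycle call was lost under cyclic loess normalization (adjusted P = 0.0826), with a period of 24 h alone (adjusted P = 0.113) and without any of ZT0, ZT9, ZT15, ZT18 or ZT21 (adjusted P = 0.161 each).

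The other 18 Cd36 peaks had means from 35.9 to 1157 normalized counts. Of all 23 peaks, 8 were lowest at ZT0 (34.8%, compared with 12.2% of all peaks) and 8 were highest at ZT12 (34.8%, compared with 10.6% of all peaks). Several of the remaining peaks are named here after their values had been seen. Cd36 peak 18 (chr5:17882650-17883864, intron 1) had the widest range, from 93.5 normalized counts at ZT0 to 225 at ZT15, a ratio of 2.41. It came closest to a call by edgeR (adjusted P = 0.0566) with JTK-cycle at 1.0. Upstream of the gene, peak 20 (chr5:17893070-17894361) ranged from 209.6 at ZT0 to 375 at ZT12 and peak 21 (chr5:17898675-17899440) from 112.5 at ZT15 to 194 at ZT6 (edgeR adjusted P = 0.142 and 0.0808). Peak 14 (chr5:17862893-17864373, intron 1) departed at a single time point, with 490.1 at ZT3 against 682 to 848.5 at the other times. Peak 17 (chr5:17878835-17882316) ranged from 1022 at ZT0 to 1274 at ZT3, and its ratio of highest to lowest was 1.25.

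**Figure D2:**
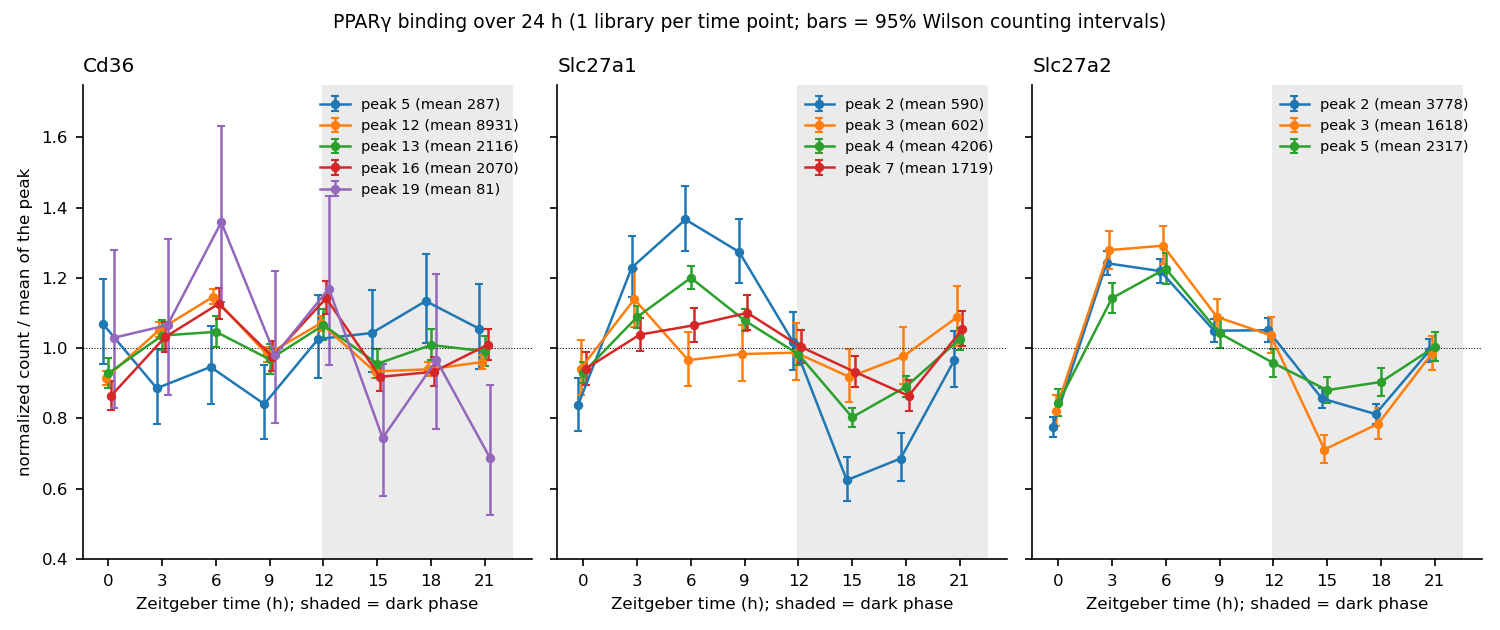
Normalized count of each named peak divided by its own mean (y axis, linear) against Zeitgeber time in h (x axis), with 1 library per time point, 95% Wilson counting intervals as bars and the dark phase shaded. Strong Cd36 peaks (peaks 12, 13 and 16) stay between 0.864 and 1.15, while Slc27a1 peak 2 and Slc27a2 peak 3 are high at ZT3 and ZT6 and low at ZT15.

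At Slc27a1, 2 regions at and before the 5′ end of the gene, peaks 2 and 4, were called by both tests, with their highest value at ZT6 and their lowest at ZT15, and neither test called the other 8 peaks of the window. Slc27a1 lies on the plus strand (chr8:71568871-71587307) with 3 curated start sites and 4 curated transcripts, and its window also holds the genes Tmem221, Nxnl1, Pgls and Niban3. In counting intervals, lowest and highest values were apart in 7 of 10 peaks, compared with 83.9% of all peaks. The median amplitude of 0.105 on the log2 scale was below the 0.174 of all peaks. Each of the 10 peaks was highest at ZT3, ZT6 or ZT9 (4, 3 and 3 peaks), and each was lowest at ZT15, ZT0 or ZT18 (6, 2 and 2 peaks). Of all peaks, 11.9%, 17.4% and 9.29% were highest at ZT3, ZT6 and ZT9. The shares of all peaks that were lowest at ZT15, ZT0 and ZT18 were 19.6%, 12.2% and 10.3%.

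Slc27a1 peak 4 (chr8:71567071-71571003) covers all 3 start sites and was the strongest of the window, with a mean of 4206 normalized counts. Its density of 1069 per kb was above that of 98.7% of all peaks, and above the 469.9 of Cd36 peak 12 and the 467 of Slc27a2 peak 2. In normalized counts, binding was 3914, 4578, 5048 and 4538 at ZT0, ZT3, ZT6 and ZT9, then 4134, 3379, 3744.5 and 4315.5 at ZT12, ZT15, ZT18 and ZT21. The curve rose to ZT6 (95% interval 4912 to 5187), fell at each step to ZT15 (3269 to 3493) and rose again, a ratio of 1.49 between highest and lowest. JTK-cycle called it with a LAG of 6.0 h in a period of 21 h (adjusted P = 0.00595) and edgeR with an estimated peak at 5.11 h (adjusted P = 0.0365, amplitude 0.20 ± 0.05 (SE) on the log2 scale). Both calls were lost under cyclic loess normalization (JTK-cycle adjusted P = 0.915, edgeR adjusted P = 0.415), where the lowest value was still at ZT15 (3709) but the highest was at ZT21 (4541). The JTK-cycle call was also lost with a period of 24 h alone (adjusted P = 0.113), and the edgeR call with library totals (adjusted P = 0.0836) and without any of ZT6, ZT9, ZT12, ZT15 or ZT18 (adjusted P from 0.0590 to 0.160).

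Slc27a1 peak 2 (chr8:71563957-71565213) had the lowest edgeR P value of the 38 peaks. It lies in intron 1 of the adjacent gene Nxnl1, which encodes a thioredoxin-like protein known from the retina. The start site nearest to its centre is that of Nxnl1, at 2064 bp, and the centre is 4286 bp before the first Slc27a1 start site. Reads per library, as normalized counts, came to 494, 725.6, 806.5 and 752 at ZT0, ZT3, ZT6 and ZT9, then 601, 369, 405 and 570.4 at ZT12, ZT15, ZT18 and ZT21. The values at ZT3, ZT6 and ZT9 were the highest, those at ZT15 and ZT18 the lowest, and the intervals at ZT6 (753 to 863) and ZT15 (333 to 408) did not overlap, with a ratio of 2.19. JTK-cycle gave an adjusted P of 0.00595, a LAG of 7.5 h in a period of 21 h and a relative amplitude of 32.0%. The edgeR cosine gave an adjusted P of 0.00679, an amplitude of 0.48 ± 0.08 (SE) on the log2 scale, larger than that of 96.0% of all peaks, and an estimated peak at 5.74 h. The call held in all 16 JTK-cycle alternatives (adjusted P from 0.00595 to 0.0440) and all 15 edgeR and DESeq2 alternatives (adjusted P from 2.06e-05 to 0.0487).

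The next region, Slc27a1 peak 3 (chr8:71565841-71566786), begins 627 bp further on at exon 1 of Nxnl1 and had nearly the same mean, 602.4 against 590.4 normalized counts for peak 2. Over the 8 libraries, normalized counts were 567, 686, 582 and 592 at ZT0, ZT3, ZT6 and ZT9, then 595, 553, 588 and 656 at ZT12, ZT15, ZT18 and ZT21. It was level apart from small highs at ZT3 and ZT21, and neither test called it (JTK-cycle adjusted P = 1.0, edgeR adjusted P = 0.667). Within libraries, and thus without normalization, the ratio of reads in peak 2 to reads in peak 3 was 0.871, 1.06, 1.39 and 1.27 at ZT0, ZT3, ZT6 and ZT9, then 1.01, 0.667, 0.688 and 0.870 at ZT12, ZT15, ZT18 and ZT21. The ratio was highest at ZT6 (95% interval 1.25 to 1.54) and lowest at ZT15 (0.586 to 0.759), a 2.08-fold difference. Peak 2 also changed relative to peak 4, from 0.108 reads per read of peak 4 at ZT18 (0.0974 to 0.120) to 0.166 at ZT9 (0.153 to 0.179).

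Slc27a1 peak 7 (chr8:71591021-71594253) lies beyond the end of Slc27a1, 453 bp from the start site of Pgls, an enzyme of the pentose phosphate pathway, and was the second strongest of the window. Its normalized counts were 1619, 1785, 1831 and 1892 at ZT0, ZT3, ZT6 and ZT9, then 1725, 1603, 1486 and 1812 at ZT12, ZT15, ZT18 and ZT21. It was highest at ZT9 and lowest at ZT18, with a ratio of 1.27, and was called by neither test (JTK-cycle adjusted P = 0.0826, edgeR adjusted P = 0.266). With cyclic loess normalization it was highest at ZT21 (1863). The other 6 peaks of the window had means from 100.3 to 254 normalized counts and ratios of highest to lowest from 1.22 to 1.61. Peak 5 in intron 3 and peak 6 at exon 4 were the only ones with their centre in the gene body downstream of peak 4, at 171 and 100.3 normalized counts.

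At Slc27a2, in the window moved by 4 Mb, the strong peaks were lowest at ZT0 or ZT15 and highest at ZT3 or ZT6. Slc27a2 lies on the plus strand with 1 curated start site and 1 curated transcript, and the window also covers the end of Hdc, the gene of histidine decarboxylase. The 5 peaks had a median chi-square per degree of freedom of 41.2, compared with 4.57 for all peaks, and a median amplitude of 0.188 on the log2 scale, compared with 0.174. For the same relative change, the chi-square is larger in stronger peaks. The median count of these peaks was 1618 normalized counts, compared with 224 for all peaks. Lowest and highest values had separate counting intervals in 4 of 5 peaks, compared with 83.9% of all peaks. The median density was 467 normalized counts per kb, compared with 269.9 over all peaks, 123 at Cd36 and 313 at Slc27a1.

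Slc27a2 peak 2 (chr2:126552378-126560471) covers the start site and is 8094 bp wide, which ranks 143 by width in the table. In normalized counts, binding was 2934, 4691, 4606.5 and 3965 at ZT0, ZT3, ZT6 and ZT9, then 3971, 3239, 3069.8 and 3749 at ZT12, ZT15, ZT18 and ZT21. The step from ZT0 (95% interval 2828 to 3044) to ZT3 (4562 to 4824) was 1.60-fold and spanned its whole range. The edgeR cosine called it (adjusted P = 0.0469, amplitude 0.26 ± 0.07 (SE) on the log2 scale, estimated peak at 6.26 h), and JTK-cycle did not (adjusted P = 0.467). The edgeR call was lost in 10 of 15 alternatives, among them cyclic loess normalization (adjusted P = 0.334) and removal of any of ZT3, ZT6, ZT9, ZT12, ZT15 or ZT18 (adjusted P from 0.0611 to 0.192).

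Slc27a2 peak 3 (chr2:126561310-126564229, intron 2) was called by both tests. Reads per library, as normalized counts, came to 1330.4, 2069.5, 2090.0 and 1762 at ZT0, ZT3, ZT6 and ZT9, then 1677.5, 1152, 1270.4 and 1594 at ZT12, ZT15, ZT18 and ZT21. It was highest at ZT3 and ZT6 and lowest at ZT15, with a ratio of 1.81, and ZT3 was the highest under cyclic loess normalization (2007). JTK-cycle gave a LAG of 7.5 h in a period of 21 h (adjusted P = 0.0260) and edgeR an estimated peak at 5.49 h (adjusted P = 0.0149, amplitude 0.35 ± 0.07 (SE) on the log2 scale). The JTK-cycle call was lost with library totals and under cyclic loess normalization (adjusted P = 0.0826 each) and without ZT6 (adjusted P = 0.161), and the edgeR call without ZT6, ZT15 or ZT18 (adjusted P from 0.0612 to 0.0736). The ratio of reads in peak 3 to reads in peak 2 stayed between 0.414 and 0.454 at 7 of the time points and fell to 0.356 at ZT15 (95% interval 0.333 to 0.380).

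Slc27a2 peak 5 (chr2:126596318-126601046) lies in intron 9 of Hdc. Over the 8 libraries, normalized counts were 1955, 2647, 2841 and 2415 at ZT0, ZT3, ZT6 and ZT9, then 2219, 2040.4, 2094 and 2325 at ZT12, ZT15, ZT18 and ZT21. It too was low at ZT0 and highest at ZT6 (ratio 1.45), and was called by neither test (JTK-cycle adjusted P = 0.0826, edgeR adjusted P = 0.0818), although both called it without ZT0 (adjusted P = 0.00595 and 0.0181). Upstream of the gene, peak 1 (chr2:126544800-126546852) ranged from 479 at ZT0 to 805 at ZT3 and was not called (edgeR adjusted P = 0.435). Peak 4 in intron 5 was weak, at 60.6 to 90.0 normalized counts.

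**Figure D3:**
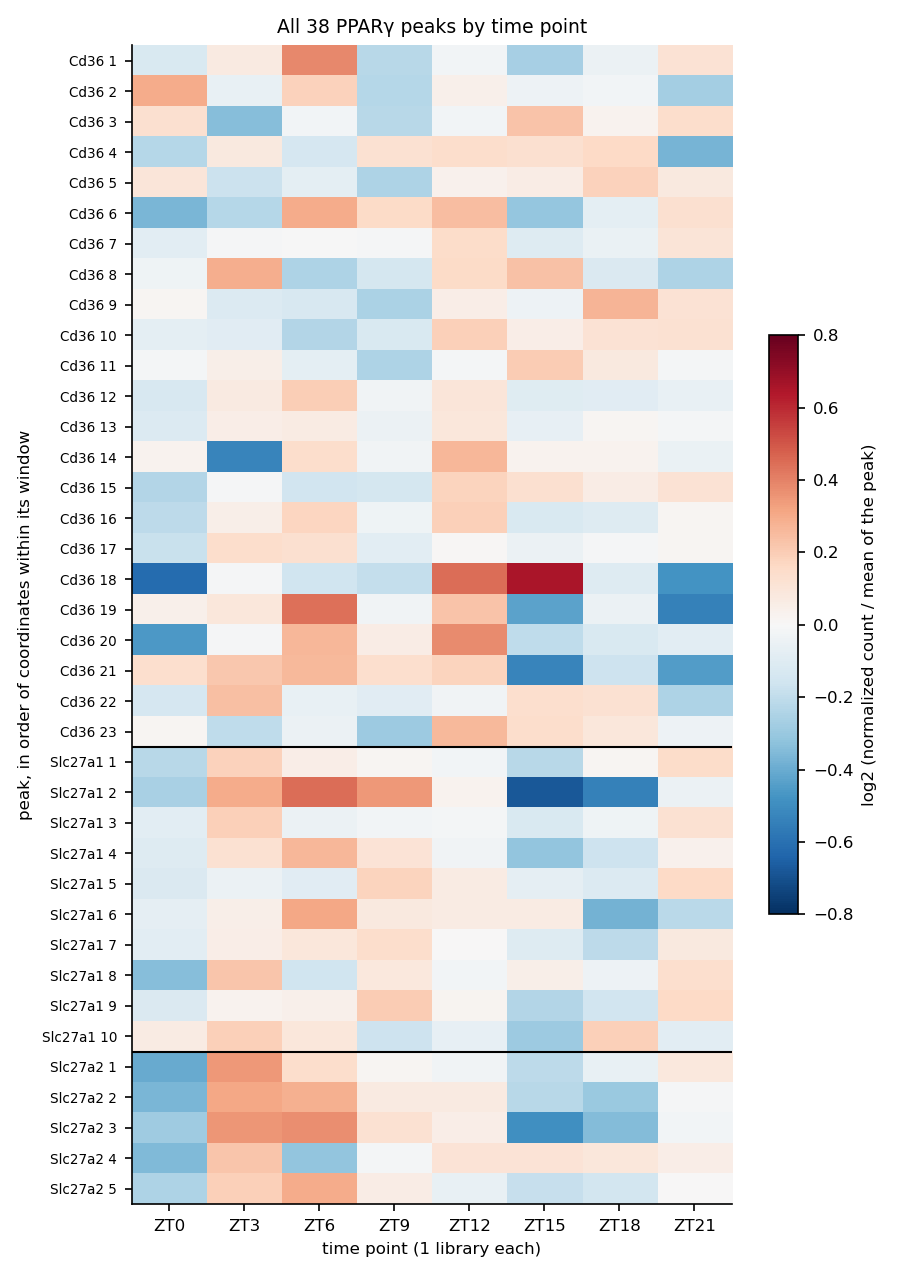
All 38 peaks (rows, by coordinate within each window) at the 8 time points (columns), coloured by log2 of the normalized count over the mean of the peak. Slc27a1 peak 2 and Slc27a2 peak 3 run from red at ZT3 and ZT6 to blue at ZT15 and ZT18, whereas Cd36 peaks 12 and 13 stay pale.

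**Figure D4:**
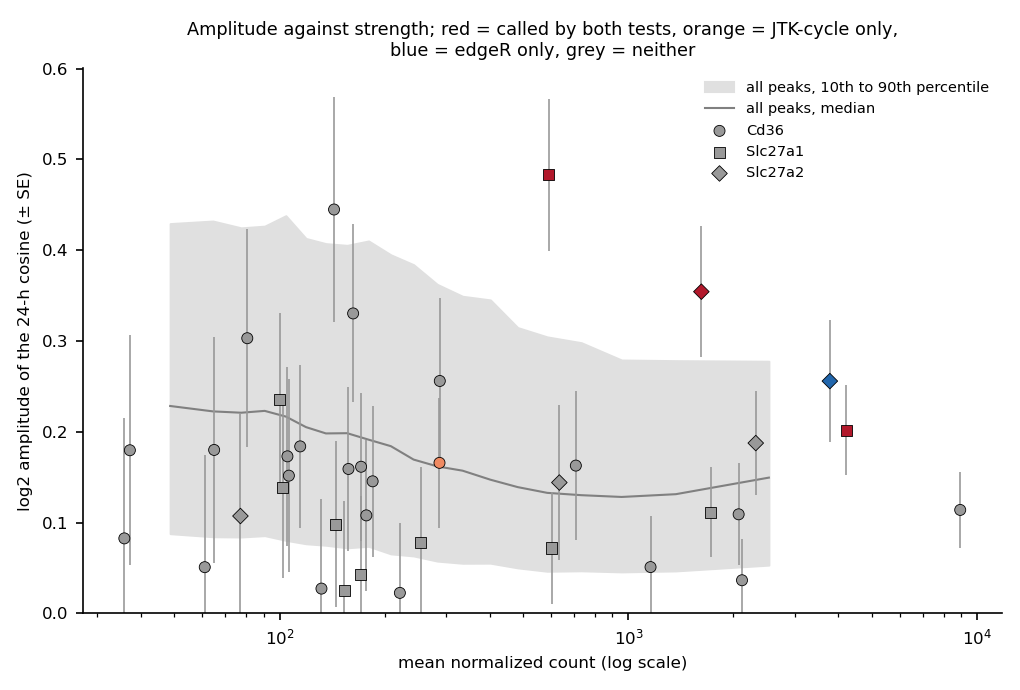
Log2 amplitude of the 24-h cosine with its SE (y axis, linear) against mean normalized count (x axis, log scale) for the 38 peaks, with the 10th to 90th percentile of all peaks in bins of strength as a grey band. Slc27a1 peak 2 (0.48), Cd36 peak 18 (0.44) and Slc27a2 peak 3 (0.35) lie above the band, and Cd36 peak 12 (0.11), the strongest of the 38, lies to the right of the band, below the last point of the line of medians (0.150).

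Summed over all peaks of its window, Cd36 ranged from 16033 normalized counts at ZT0 to 19409 at ZT6, a ratio of 1.21, and peak 12 alone gave between 49.6% and 52.8% of the sum. Slc27a1 ranged from 6754 at ZT15 to 9209 at ZT6, a ratio of 1.36, of which peak 4 gave between 50.04% and 54.8%. Slc27a2 ranged from 6759 at ZT0 to 10302 at ZT3, a ratio of 1.52, of which peak 2 gave between 43.1% and 46.3%. The sums include peaks in adjacent genes, among them Slc27a1 peak 7 in Pgls (mean 1719) and Slc27a2 peak 5 in Hdc (mean 2317). The sums cover different lengths of peak (51.9 kb at Cd36, 12.9 kb at Slc27a1 and 18.2 kb at Slc27a2) and are not levels to be compared between genes.

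The summed time courses of the windows were compared with those of every other gene with peaks assigned by the nearest start site. The measure was Pearson's r of log2 sums over the 8 shared libraries. For Cd36, the most similar of 15687 genes were Sumf1 (r = 0.985), 1700061J23Rik (0.973) and Hlx (0.960). For Slc27a1 they were Hoxb1 (0.994), Ubl4b (0.990) and Nradd (0.990), and for Slc27a2 Hsdl2 (0.995), Mt2 (0.989) and Bpgm (0.988). These are the highest of many values over 8 points that share libraries and depth, and are a description only.

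Other genes of fatty acid uptake gave a setting for these values. Of 19 listed genes, 17 had assigned peaks, 132 in all, of which JTK-cycle called 23 (17.4%) and edgeR 34 (25.8%), compared with 11.6% and 13.4% of all peaks. Among all peaks with a mean count of at least 100 these shares were 12.6% and 15.0%. The JTK-cycle calls fell in 9 of the 17 genes and the edgeR calls in 12. Of the 23 JTK-cycle calls, 8 were at Lpl and 7 at Acsl1, so the pooled share does not describe every listed gene. Within the Slc27a family, Slc27a3 had no assigned peak, Slc27a4 had 1 (mean 414 normalized counts, JTK-cycle adjusted P = 0.0260 with a LAG of 0 h, edgeR adjusted P = 0.149), Slc27a5 had 2, of which edgeR called 1, and Slc27a6 had 1 that was not called. Genes that act before uptake included Lpl, the lipase of circulating triglycerides, with 8 of 24 peaks called by JTK-cycle and 7 by edgeR. The strongest Lpl peak was called by neither test (JTK-cycle adjusted P = 0.0826, edgeR adjusted P = 0.106). Gpihbp1, which carries LPL to the capillary lumen, had 3 of 3 peaks called by edgeR and 0 by JTK-cycle. Genes that act after uptake included the fatty acid-binding protein Fabp4, whose strongest peak (mean 7340 normalized counts) was called by both tests with an estimated peak at 5.54 h. Of the acyl-CoA synthetases, Acsl1 had 7 of 21 peaks called by JTK-cycle and 8 by edgeR. The strongest Acsl5 peak had its estimated peak at 17.5 h by edgeR (adjusted P = 0.0347) and was not called by JTK-cycle (adjusted P = 0.212). The caveolar genes Cav1 and Cavin1 had 1 of 9 and 1 of 5 peaks called by edgeR, and 0 each by JTK-cycle.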

How the data were processed

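PPARγ ChIP-sequencing of pooled iBAT at 8 time points (1 library each) was analysed. The ZT12 input library, the RNA-sequencing and the lipidomics of the study were not analysed here. The authors mapped reads to mm10 with BWA 0.7.17, called peaks with MACS2 2.1.2, retained those that passed a false discovery rate of 0.05 in 6 or more of the libraries, and obtained counts with HTSeq 1.99.2, where versions are from the submitters' processing notes. The deposited values are these counts, not normalized by the authors. How duplicate reads were handled is not given in the sources used here, and counting duplicates would narrow the intervals, which cover counting error only.

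TMM factors, a 24-h cosine (glmQLFit and glmQLFTest, common dispersion 0.0116, 5 residual degrees of freedom) and Benjamini-Hochberg adjusted P values over all 66066 peaks were calculated with edgeR 4.0.16 in R 4.3.3. With 1 library per time point, the spread in this test is how far the libraries lie from the fitted cosine. JTK-cycle was written anew in Python 3.11.15, with the exact null distribution and waves of 21 and 24 h, and P values were multiplied by the 15 waves tried. Of the 40320 orders of 8 values, 1.86% pass its threshold, and its adjusted P values take only the steps 0.000744, 0.00595 and 0.0260 below it. Both tests were tested on simulated data with independent counts in each library. The simulated libraries differed in size but held no shift with peak strength, so the effect of such a shift on the calls was not covered. Alternatives used limma 3.58.1 and DESeq2 1.42.0, and statsmodels 0.14.6 gave Wilson intervals at 95%. Peaks were placed by their centre on curated RefSeq transcripts of GRCm38, and DR1 elements were searched on both strands.

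Named peaks were, in each window, the 3 with the highest mean, those covering or nearest to each start site, and those called by either test. Exceptions are marked in the text. The members, gene lists and tests were chosen with earlier results of these data known.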

Additional observations from a re-analysis of the deposited data

How the results depend on the processing

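No paired analysis was possible because each time point had 1 library and no replicate numbers were shared. Of the comparisons of named peaks with an alternative, JTK-cycle kept its side of the threshold in 176, lost a call in 13 and gained one in 2, and the cosine tests kept it in 158, lost a call in 20 and gained one in 1. The estimated peak time moved by over 6 h for 3 named peaks that neither test called as reported: Cd36 peak 12 (edgeR, from 7.11 to 17.1 h under cyclic loess), Cd36 peak 13 (edgeR, from 8.64 to 15.6 h with library totals and 16.7 h under cyclic loess) and Slc27a1 peak 3 (JTK-cycle, from 4.5 to 18.0 h without ZT3 or ZT15). Slc27a1 peak 2 alone among the called peaks kept its calls under every alternative.

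JTK-cycle called 3 peaks in the windows as given, and 1 with a period of 24 h only. With 1 library left out in turn it called between 2 and 5, the latter without ZT12. At Cd36 the 1 call became 0 under cyclic loess, with 24 h only, with ties kept in the reference waves (added after seeing the data) and at an adjusted P under 0.01. Leaving out a library gave 0 (without ZT0, ZT15, ZT18 or ZT21) to 3 (without ZT12). At Slc27a1 the 2 calls became 1 with 24 h only, and 2 to 3 with a library left out. At Slc27a2 the 1 call became 0 with library totals, under cyclic loess and at 0.01, and leaving out a library gave 0 (without ZT6) to 3 (without ZT0), with 2 without ZT3.

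The edgeR cosine called 2 peaks in the windows as given, both at Slc27a1, and 1 with library totals, under cyclic loess and at an adjusted P under 0.01. With the moved window, added after seeing the data, it called 4. Leaving out a library gave 1 to 3 calls in the windows as given (1 without ZT6, ZT12, ZT15 or ZT18, and 3 without ZT3) and 1 to 2 at Slc27a1 (1 also without ZT9). At Cd36 the 0 calls became 1 by DESeq2's likelihood ratio test, and leaving out a library gave 0 to 1 (1 without ZT3 or ZT9). At Slc27a2 the 2 calls became 1 with library totals, upper-quartile factors, cyclic loess or a mean count of at least 100, and 0 at an adjusted P under 0.01. Leaving out a library there gave 0 (without ZT6, ZT15 or ZT18) to 3 (without ZT0), with 1 without ZT3, ZT9 or ZT12. Leaving out a library also leaves fewer values to order, and the cause of the other changes was not tested.

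By nearest start site, 26 of the 33 peaks belonged to Cd36 or Slc27a1, and 10 lay within 10 kb of its start site. DR1-like elements were found in 8 of the 33 peaks with up to 2 mismatches and in 1 with up to 1. Weak peaks limit precision: Cd36 peak 2, with a mean of 35.9 normalized counts, had a chi-square per degree of freedom of 0.634, so its values cannot be ordered at this depth.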

Other observations

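Ratios of reads between regions of the same window, which need no scaling between libraries, also changed over the day. Not all of these regions lie in the gene that names the window: Slc27a1 peaks 2 and 3 lie in Nxnl1 and peak 7 in Pgls. At Slc27a1, the reads of peak 2 over those of peak 3 changed 2.08-fold over the day, and those of peak 4 over peak 7 changed 1.31-fold, from 2.11 at ZT15 (95% interval 1.99 to 2.24) to 2.76 at ZT6 (2.62 to 2.91). At Slc27a2, the reads of peak 2 over those of peak 5, which lies in Hdc, changed 1.22-fold, from 1.47 at ZT18 (1.39 to 1.55) to 1.79 at ZT12 (1.70 to 1.89). At Cd36, the reads of peak 16 over those of peak 17 changed 1.21-fold, from 1.67 at ZT3 (1.56 to 1.79) to 2.03 at ZT12 (1.89 to 2.18). Each pair of values is the lowest and highest ratio of the day, and differences between pools are not part of the intervals. Where regions differ in strength, as Slc27a1 peaks 4 and 7 do (means 4206 and 1719), a shift of the libraries with peak strength also enters the ratio. Its part in these changes was not tested. Slc27a1 peaks 2 and 3 had nearly the same mean (590.4 and 602.4).

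The 8 peaks of Cd36 that were lowest at ZT0 and the 4 of Slc27a2 share the ZT0 library, in which 12.2% of all peaks were lowest. Whether this belongs to the time of day or to that single library cannot be told apart.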
